A study of Homo sapiens with 6 samples.

Results

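The integrated stress response was represented by 10 genes, ATF4, DDIT3, TRIB3, CHAC1, ASNS, PSAT1, PPP1R15A, EIF2AK3, EIF2AK4 and XBP1, taken by symbol from a table of 38637 genes. All 10 were in the table, and all 10 passed the filter on low values that left 16178 genes for testing. Expression was measured by sequencing of polyA RNA from OVCAR8, a human ovarian cancer cell line with a wild type genotype in the labels. The cells were treated for 72 h with the vehicle DMSO or with 2 nM pladienolide B (plaB), a small molecule that inhibits the splicing factor SF3B1. There were 3 samples in each group and no treatment other than the vehicle was shared by the groups. The sources do not say whether the 3 samples came from separate cultures, so the p-values below measure the spread between these samples, which may be technical. The comparison asks which stress response transcripts differ between cells with an inhibited and an uninhibited SF3B1.

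In the integrated stress response, kinases that sense different stresses phosphorylate the translation factor eIF2. General protein synthesis then slows, while translation of the ATF4 mRNA increases through short reading frames upstream of its coding sequence. ATF4 is a transcription factor that activates genes for amino acid synthesis and transport, tRNA charging and, with CHOP, cell death. The pathway is also a branch of the unfolded protein response of the endoplasmic reticulum, in which XBP1 acts in a separate branch. Since ATF4 is controlled largely at translation and XBP1 by an unusual splicing step in the cytoplasm, their mRNA levels per gene do not measure the activity of either protein.

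The values are adjusted reads, that is, read counts per gene that the authors scaled to a common library size. They were recovered as 22621338 to 26130882 whole reads per sample. Epithelial markers were present, with 40100 to 53035 adjusted reads for KRT8 and 431 to 513 for EPCAM. Of 8 epithelial markers 5 had a mean over 50, and KRT19, WT1 and MUC16 did not. The summed level of 4 leukocyte markers was 37.5 to 44.3 in DMSO and 37.6 to 54.0 in plaB, and CD3E was at 0 in all samples. Both endothelial markers together had 27.2 to 39.3 adjusted reads in DMSO and 26.2 to 45.1 in plaB. Of the fibroblast markers COL1A1 was present, with 5600 to 6902 adjusted reads, and PDGFRA had 0 to 9.02. Values are shares of a library, so fewer cells in a given state and less RNA per cell cannot be told apart.

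DMSO replicate 2 stood apart from the other vehicle samples. The chi-square per degree of freedom, which is 1 where samples differ by counting error alone, was 7.77 and 7.69 between it and DMSO replicates 1 and 3, against 2 between those 2 samples and 3.19 to 4.8 between plaB samples. It was the lowest DMSO sample for 8 of the 10 stress response genes, all but EIF2AK3 and EIF2AK4, against 35.7% of all genes tested. The median difference of DMSO replicate 2 from the mean of the other DMSO samples was -0.47 on the log2 scale over the 10 genes and 0.013 over all genes. Fold changes of the 10 genes are therefore also given without this sample, as are those of some of the other genes named. That fit keeps only DMSO replicates 1 and 3, and the sample left out was picked by its values in these same genes. Where it was low, leaving it out narrows the DMSO spread by construction, as for CHAC1, whose SE went from 0.31 to 0.14. Smaller adjusted p-values without it are therefore not stronger evidence of a change.

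Of the 10 genes, 3 were higher in plaB at an adjusted p under 0.05, and these were PPP1R15A, DDIT3 and EIF2AK4. Another 5 were lower, and these were CHAC1, ASNS, XBP1, ATF4 and PSAT1. TRIB3 and EIF2AK3 did not pass the threshold. In the same limma fit of log2(value + 1) with Benjamini-Hochberg adjustment over all genes, 22.4% of all genes tested were higher and 25.2% lower. Without DMSO replicate 2 the 10 genes gave 3 higher and 6 lower, with TRIB3 added to the lower ones, and the shares over all genes were 23.5% and 25.0%. For 7 of the 10 genes the plaB samples lay all above or all below the DMSO samples, which held for 55.3% of all genes tested. The median log2 fold change, plaB over DMSO, was -0.25 over the 10 genes and -0.004 over all genes. The scale log2(value + 1) understates changes of genes with few reads.

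**Figure D1:**
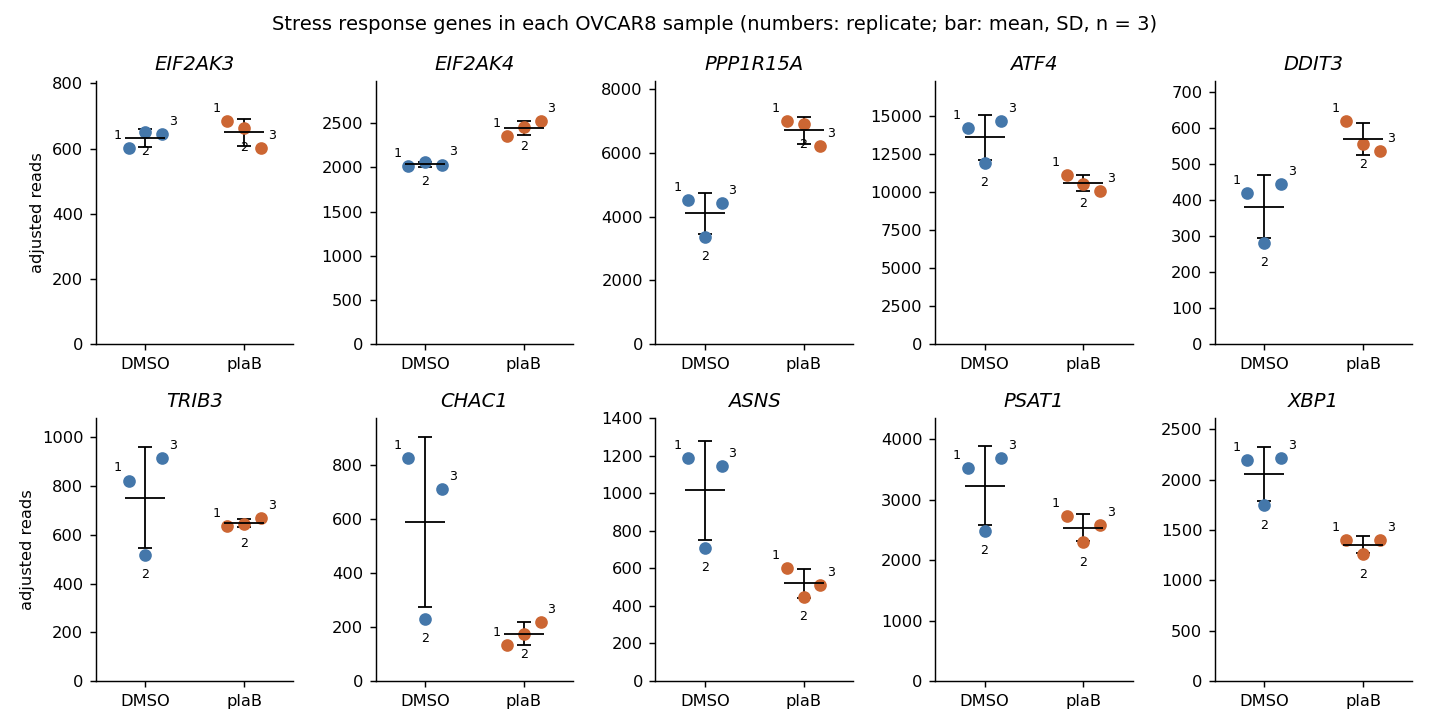
Adjusted reads (vertical axes, starting at 0 and scaled for each gene) of the 10 stress response genes in each sample. Points are samples, labelled with the replicate number, and bars are the mean and SD of 3 samples. DMSO replicate 2 is the lowest DMSO point in 8 of the 10 panels, most clearly for CHAC1, where it had 231 adjusted reads.

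Among the eIF2 kinases, EIF2AK3 encodes PERK, the sensor of unfolded protein in the endoplasmic reticulum, and lies at chr2:88556741-88627464 on the minus strand (all gene positions are those of the deposited table, which match GRCh38). It had 601, 651 and 646 adjusted reads in DMSO replicates 1 to 3 and 684, 663 and 603 in the plaB replicates. The groups overlapped, with means of 633 ± 27.4 in DMSO and 650 ± 42.0 in plaB (SD, n = 3). The log2 fold change was 0.04, with a 95% interval of -0.11 to 0.19 and an adjusted p of 0.69 in limma, and it was 0.06 without DMSO replicate 2 (adjusted p = 0.53). Its span shares 18870 bases, or 26.7%, with LOC101928371 on the opposite strand, which had 90 to 116 adjusted reads, and whether reads were counted by strand is not given in the sources used here.

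EIF2AK4 (chr15:39934115-40035591, plus strand) encodes GCN2, the kinase that senses uncharged tRNA when amino acids run short. In DMSO it had 2010, 2064 and 2032 adjusted reads, and in plaB 2359, 2457 and 2522. All plaB samples lay above all DMSO samples, and the means were 2035 ± 27.4 and 2446 ± 82.4 (SD, n = 3). The plaB level was 120% of the DMSO level, with a log2 fold change of 0.26 (SE 0.05, adjusted p = 0.00015 in limma). The value without DMSO replicate 2 was 0.27, with an adjusted p of 3.1e-05 in limma.

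PPP1R15A (chr19:48872421-48876058, plus strand) encodes GADD34, the stress-induced subunit that directs protein phosphatase 1 to eIF2 and so ends the response. Its adjusted reads were 4523, 3369 and 4426 in DMSO and 6999, 6906 and 6230 in plaB. The plaB samples were all higher, and the mean rose from 4106 ± 640 to 6712 ± 420 (SD, n = 3), or 163% of DMSO. This was the largest rise among the 10 genes, a log2 fold change of 0.72 (SE 0.08, adjusted p = 1.6e-06 in limma), and 0.58 without DMSO replicate 2, which was the lowest sample. Of the promoter motifs searched, its RefSeq promoter window held the cAMP response element TGACGTCA, which is its own reverse complement and is bound by CREB and ATF proteins. The window runs from 250 bases before to 50 bases after an annotated transcription start, both strands were searched, and 1.84% of 34943 windows held this motif. The match began at position -58 from the start, at chr19:48872352-48872381 (GRCh38.p14, plus strand), with the motif in capitals:
PPP1R15A: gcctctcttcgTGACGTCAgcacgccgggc

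ATF4 (chr22:39514494-39522686, plus strand), the central transcription factor, fell. It had 14188, 11918 and 14640 adjusted reads in DMSO and 11110, 10526 and 10065 in plaB, so that all plaB samples were below the lowest DMSO sample. The mean went from 13582 ± 1460 to 10567 ± 524 (SD, n = 3), which is 77.8% of DMSO. The log2 fold change was -0.36 (SE 0.06, adjusted p = 0.00014 in limma), and -0.45 without DMSO replicate 2 (adjusted p = 5.1e-09). The annotated span of ATF4 shares 3640 bases, 44.4% of its length, with MIEF1, another gene on the same strand. MIEF1 had 1342 to 1929 adjusted reads and changed in the other direction, with a log2 fold change of 0.47 (adjusted p = 5.6e-07 in limma). How reads in the shared bases were assigned is not given in the sources used here.

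DDIT3 (chr12:57516588-57520517, minus strand) encodes CHOP, the transcription factor that ATF4 induces and that promotes death under prolonged stress. It rose while ATF4 fell, from 419, 282 and 444 adjusted reads in DMSO to 619, 555 and 536 in plaB. The groups did not overlap, with means of 382 ± 86.9 and 570 ± 43.2 (SD, n = 3), and plaB was at 149% of DMSO. The log2 fold change was 0.60 (SE 0.13, adjusted p = 0.00081 in limma). Because DMSO replicate 2 was low, the value without it was smaller, at 0.40 (adjusted p = 0.00037 in limma). Only 68 bases of its span, 1.73%, overlap MARS1 on the opposite strand, and it also overlaps the microRNA gene MIR616.

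TRIB3 (chr20:380760-397559, plus strand) encodes a pseudokinase that is induced by ATF4 and CHOP and restrains both. The DMSO samples had 823, 519 and 916 adjusted reads and the plaB samples 636, 646 and 668. DMSO replicate 2 was below every plaB sample and the other DMSO samples were above every plaB sample. The means were 753 ± 208 and 650 ± 16.7 (SD, n = 3), and the log2 fold change of -0.17, with a 95% interval of -0.46 to 0.12, did not pass the threshold (adjusted p = 0.32 in limma). Without DMSO replicate 2 it was -0.42, with an adjusted p of 3.3e-05 in limma, so whether TRIB3 passed depended on 1 vehicle sample.

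CHAC1 (chr15:40942137-40956518, plus strand) encodes an enzyme that degrades glutathione and is a target of ATF4 and CHOP. It had the largest change and the widest spread of the 10 genes. The adjusted reads were 828, 231 and 711 in DMSO, where the highest sample was 3.58 times the lowest, and 134, 174 and 220 in plaB. The ranges did not overlap, but DMSO replicate 2 was close to plaB replicate 3. The mean was 590 ± 316 in DMSO and 176 ± 43.3 in plaB (SD, n = 3), or 29.9% of DMSO. CHAC1 fell by 1.57 on the log2 scale (SE 0.31, 95% interval -2.23 to -0.91, adjusted p = 0.00051 in limma), with a log2 fold change of -2.15 without DMSO replicate 2 (adjusted p = 2.3e-10). In limma without the variance trend the adjusted p was 0.059.

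ASNS encodes asparagine synthetase, an ATF4 target whose product makes asparagine from aspartate and glutamine (chr7:97851677-97928441, minus strand). Its adjusted reads were 1188, 708 and 1147 in DMSO and 599, 448 and 512 in plaB, with every plaB sample below every DMSO sample. The mean fell from 1014 ± 266 to 520 ± 75.5 (SD, n = 3), to 51.2% of DMSO, a log2 fold change of -0.94 (SE 0.14, adjusted p = 4.8e-05 in limma). Without DMSO replicate 2 it was -1.18. The level is uncertain because CZ1P-ASNS, a readthrough gene on the same strand, shares 76325 bases with it, 99.4% of the ASNS span. CZ1P-ASNS was listed at 86.9% to 92.2% of the ASNS value in each sample, and its log2 fold change was -0.98 (adjusted p = 4.7e-05), so the rows are not independent measurements.

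CHAC1 and ASNS were the only genes of the 10 with an exact match to TGATGNAA, a short form of the C/EBP-ATF response element at which ATF4 binds, in their RefSeq promoter windows. On either strand 3.62% of 34943 windows held this motif. The matches lie at chr15:40953251-40953280 for CHAC1 and at chr7:97872458-97872487 for ASNS (GRCh38.p14, both read on the minus strand), at positions -209 and -68 from the start, and are shown with the motif in capitals because these 2 genes fell most:
CHAC1: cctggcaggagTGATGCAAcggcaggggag
ASNS: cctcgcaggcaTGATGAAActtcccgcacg
A match shows only that these letters are in the window, and no binding was measured here.

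PSAT1 (chr9:78297125-78330093, plus strand) encodes an enzyme of serine synthesis. It had 3530, 2485 and 3695 adjusted reads in DMSO and 2736, 2295 and 2580 in plaB. The groups overlapped, since DMSO replicate 2 lay below plaB replicates 1 and 3. The means were 3237 ± 656 and 2537 ± 224 (SD, n = 3), and the log2 fold change of -0.33 (SE 0.10) had an adjusted p of 0.014 in limma. It was -0.51 without DMSO replicate 2 (adjusted p = 1.9e-07), but the call was lost with DESeq2 on the recovered reads (adjusted p = 0.13), without the variance trend, and when any of 3 other samples was left out.

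XBP1 (chr22:28794560-28800569, minus strand) encodes the transcription factor of the IRE1 branch of the unfolded protein response. It fell from 2197, 1744 and 2216 adjusted reads in DMSO to 1404, 1256 and 1402 in plaB, with no overlap. The means were 2052 ± 267 and 1354 ± 84.8 (SD, n = 3), and plaB was at 66.0% of DMSO. The log2 fold change was -0.59 (SE 0.08, adjusted p = 7.4e-06 in limma), and -0.71 without DMSO replicate 2. The table gives 1 value per gene, so spliced and unspliced XBP1 mRNA were not separated. Its promoter window held the endoplasmic reticulum stress response element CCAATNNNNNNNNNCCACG, bound by ATF6 with NF-Y, at position -52, as did that of HSPA5, which encodes the chaperone BiP, at position -66. This motif was in 0.0773% of all windows. Of the listed genes described below, EIF2A, HSP90B1, CALR, CANX, PDIA6 and CRELD2 also held it, and they are named only for that. HSP90B1 (-0.26, adjusted p = 0.00055 in limma), PDIA6 (-0.25, adjusted p = 8.2e-05) and CRELD2 (-0.42, adjusted p = 0.0026) were lower in plaB. EIF2A, CALR and CANX did not pass the threshold. The sites of XBP1, which passed, and of its listed partner HSPA5, which did not, lie at chr22:28800597-28800626 and chr9:125241385-125241414 (GRCh38.p14, minus strand):
XBP1: gctggCCAATCGCGGAGGGCCACGaccgta
HSPA5: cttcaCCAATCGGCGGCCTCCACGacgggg
HSPA5 had 18981, 21243 and 18658 adjusted reads in DMSO and 19649, 20999 and 18937 in plaB, with a log2 fold change of 0.02 (SE 0.05, adjusted p = 0.80 in limma), or 0.08 without DMSO replicate 2 (adjusted p = 0.087).

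**Figure D2:**
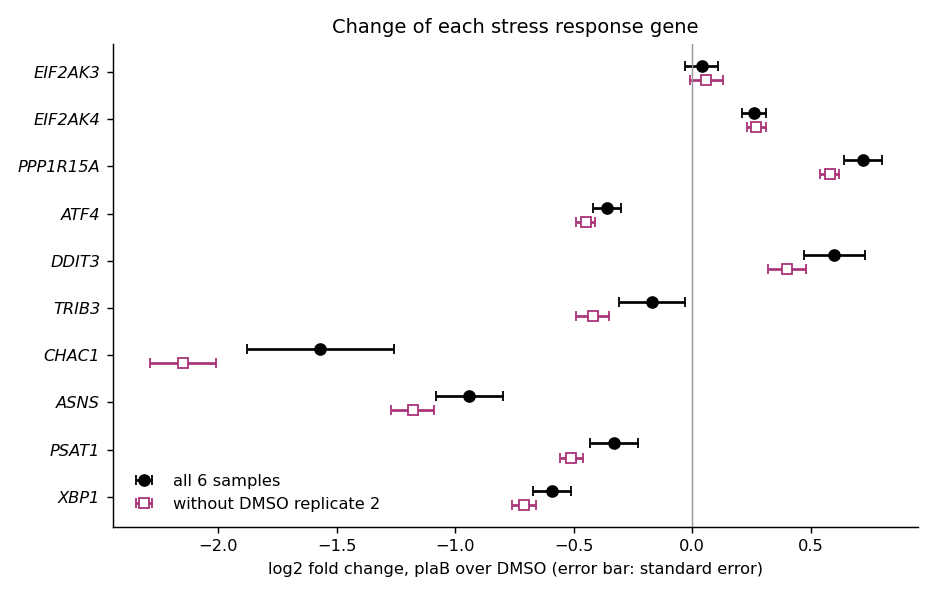
Log2 fold change, plaB over DMSO (horizontal axis), of the 10 stress response genes with all 6 samples (filled circles) and without DMSO replicate 2 (open squares). Error bars are standard errors. CHAC1 moved most on leaving that sample out, from -1.57 to -2.15, and PPP1R15A and DDIT3 moved toward 0.

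Levels were compared between genes as adjusted reads per kb of the canonical transcript. In DMSO, ATF4 stood highest with a mean of 9570 and a range of 8400 to 10300 per kb. PPP1R15A (1750), PSAT1 (1470) and XBP1 (1150) followed, and each overlapped its neighbour in this order. ASNS (425), DDIT3 (423), CHAC1 (388), EIF2AK4 (368) and TRIB3 (320) formed a group whose neighbours overlapped, and all lay below XBP1. EIF2AK3 was lowest with 139 and a range of 133 to 144 per kb. In plaB the per-kb mean of ATF4 was 7450, that of PPP1R15A 2860, and those of CHAC1 and EIF2AK3 116 and 143, with overlapping ranges of 88.1 to 145 and 133 to 151.

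The genes whose 6 log2 values, centred on each gene's mean, lay nearest to those of ATF4 were found by the root mean square difference. It was taken over the 6 samples for 13210 genes with a mean of at least 50. The nearest were MOCOS (0.033), CEBPG (0.033), KDM6B (0.038), POC1B (0.039) and ZNF767P (0.042). CEBPG, a C/EBP family partner of ATF4, had 1781, 1425 and 1745 adjusted reads in DMSO and 1336, 1329 and 1242 in plaB. Among the 10 genes the nearest to ATF4 was PSAT1 (0.114, rank 745), then XBP1 (0.137, rank 1595) and TRIB3 (0.194, rank 4481), and the farthest was CHAC1 (0.818, rank 13161). This difference counts the size of a change as well as its direction. CHAC1 and ASNS (0.342, rank 10677) were lower in plaB, as ATF4 was, but changed more. EIF2AK3, which did not pass the threshold, ranked nearer (0.229, rank 6213). The rank therefore does not show whether a gene moved with ATF4.

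The rest of the pathway was described with 7 lists of genes that leave out the 10 above. Over all genes tested 22.4% were higher and 25.2% lower. The shares higher and lower were 27.3% and 22.7% for the eIF2 list, 18.2% and 45.5% for transcription factors, and 11.1% and 55.6% for amino acid and one-carbon synthesis. They were 12.5% and 37.5% for transporters, 23.8% and 33.3% for tRNA charging, 30.0% and 35.0% for effectors, and 21.9% and 37.5% for the IRE1, XBP1 and ATF6 branches. Around eIF2 itself (kinases, phosphatase, eIF2 and eIF2B subunits and regulators) 6 of 22 genes were higher, 5 lower and 11 did not pass the threshold, with a median log2 fold change of -0.02. EIF2AK2, which encodes the RNA-activated kinase PKR, rose from 1746 ± 59.2 to 2388 ± 10.1 adjusted reads (SD, n = 3), a log2 fold change of 0.45 (SE 0.05, adjusted p = 5.6e-07 in limma), and 0.48 without DMSO replicate 2. EIF2AK1, the heme-regulated kinase HRI, had 4725, 4978 and 4763 adjusted reads in DMSO and 4769, 4540 and 4996 in plaB (adjusted p = 0.79). EIF2S3, the gamma subunit of eIF2, was lower, at -0.44 (adjusted p = 1.8e-07). EIF2D, an initiation factor that can act without eIF2, was at -0.67 (adjusted p = 4.5e-05). OMA1, the mitochondrial protease that signals to HRI, was at -0.42 with 81.5 to 137 adjusted reads, and its adjusted p of 0.034 in limma became 0.095 without DMSO replicate 2.

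Of the other stress transcription factors, 2 of 11 tested were higher, 5 lower and 4 neither, with a median of -0.04. ATF3, which dimerizes with other family members and is an ATF4 target, had 324, 181 and 292 adjusted reads in DMSO and 308, 324 and 256 in plaB, and its log2 fold change of 0.19 (adjusted p = 0.35) turned to -0.06 without DMSO replicate 2. CEBPB had a log2 fold change of 0.20 (adjusted p = 0.073), and 0.09 without that sample. JDP2 fell from 727 ± 198 to 502 ± 19.2 adjusted reads (SD, n = 3), with DMSO replicate 2 at 499 and the other vehicle samples at 858 and 824. Its log2 fold change was -0.49 (adjusted p = 0.0073), and -0.75 without that sample. CEBPG (-0.34, adjusted p = 0.0009, and -0.44 without it), ATF2 (-0.31, adjusted p = 6.6e-05) and ATF5 (-0.29, adjusted p = 0.005) were also lower.

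Amino acid and one-carbon synthesis had the lowest median of the 7 lists, -0.32, with 10 of 18 genes lower, 2 higher and 6 neither. The most changed was ALDH1L2, a mitochondrial formyltetrahydrofolate dehydrogenase, with 535, 372 and 518 adjusted reads in DMSO and 156, 174 and 202 in plaB. Its log2 fold change was -1.41 (SE 0.13, adjusted p = 1.8e-07 in limma), and -1.57 without DMSO replicate 2. MTHFD1, a cytosolic enzyme of the folate cycle, had 7434, 7507 and 7090 against 3434, 3411 and 3750, a log2 fold change of -1.06 (adjusted p = 2.5e-11). GPT2, a mitochondrial alanine aminotransferase, was at -0.84 and CBS, which makes cystathionine, at -0.79 (adjusted p = 2.5e-05 for both). PHGDH and PSPH, the enzymes before and after PSAT1 in serine synthesis, were named after their values were seen and were at -0.43 (adjusted p = 0.0007) and -0.48 (adjusted p = 0.0043). For CBS and MTHFD1 DMSO replicate 2 was the highest vehicle sample, and for GPT2, ALDH1L2, PHGDH and PSPH the lowest. Without that sample the log2 fold change was -1.07 for GPT2, -0.57 for PHGDH, -0.67 for PSPH, -0.73 for CBS and -1.04 for MTHFD1.

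The amino acid transporters gave 2 higher, 6 lower and 8 neither of 16 tested, with a median of -0.05. For 13 of the 16 (81.2%) DMSO replicate 2 was the lowest vehicle sample, against 35.7% of all genes tested. SLC7A11, the cystine transporter subunit, had 2685, 1053 and 2733 adjusted reads in DMSO and 1220, 1137 and 1108 in plaB. Its log2 fold change was -0.78 (adjusted p = 0.0096), and -1.23 without DMSO replicate 2, the only vehicle sample below the plaB range. SLC7A5, the large neutral amino acid transporter, had 6513, 3252 and 6570 against 4104, 3504 and 3810, with -0.45 (adjusted p = 0.040), and -0.78 without DMSO replicate 2. SLC3A2, the heavy chain that pairs with both, went the other way, from 5983, 3857 and 5699 to 7361, 7052 and 7228, with 0.50 (adjusted p = 0.00079). Without DMSO replicate 2 the rise of SLC3A2 was smaller, at 0.30 (adjusted p = 5.7e-07). SLC7A2, a cationic amino acid transporter, rose most, from 618 ± 18.7 to 1176 ± 66.7 (SD, n = 3), with 0.93 (SE 0.06, adjusted p = 3.8e-09). The number of transporters called lower was the least stable of these counts, and fell to 1 with DESeq2 on the recovered reads or without DMSO replicate 3. In each of those fits at most 1 of SLC7A11 and SLC7A5 therefore kept its call.

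Of 21 genes for tRNA charging and export in the cytosol, 5 were higher, 7 lower and 9 neither, with a median of 0.01. VARS1, the valyl-tRNA synthetase, fell from 7241 ± 102 to 3443 ± 178 adjusted reads (SD, n = 3), a log2 fold change of -1.07 (SE 0.04, adjusted p = 1.7e-11 in limma). The genes for the cysteinyl-tRNA and glutaminyl-tRNA synthetases, CARS1 at -0.76 (adjusted p = 8.3e-07) and QARS1 at -0.59 (adjusted p = 7.4e-09), were also lower. RARS1, for arginine, was higher at 0.41 (adjusted p = 2.3e-05). Without DMSO replicate 2 these values were -0.89 for CARS1, -0.60 for QARS1 and 0.50 for RARS1.

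The stress and death effectors gave 6 higher, 7 lower and 7 neither of 20 tested, with a median of -0.03. Their extremes were the largest of the lists. DDIT4, an inhibitor of mTORC1 that is also induced by hypoxia, had 5104, 2095 and 4982 adjusted reads in DMSO and 556, 534 and 649 in plaB. It fell by 2.70 on the log2 scale (SE 0.22, adjusted p = 3.1e-08 in limma), with a log2 fold change of -3.12 without DMSO replicate 2. VEGFA, an angiogenic factor, had 1490, 917 and 1414 against 471, 528 and 546, with -1.27 (adjusted p = 3.9e-07), and -1.50 without that sample. CDKN1A, the p21 cell cycle inhibitor and a target of p53, rose from 899 ± 77.0 to 2002 ± 120 (SD, n = 3), with 1.16 (adjusted p = 4.5e-10). TRIB1, a pseudokinase related to TRIB3, rose from 316 ± 38.7 to 621 ± 54.7 (SD, n = 3), with 0.98 (adjusted p = 3.4e-07).

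In the IRE1, XBP1 and ATF6 branches 7 genes were higher, 12 lower and 13 neither of 32 tested, with a median of -0.01. ERN1, which encodes IRE1, the enzyme that splices XBP1 mRNA, rose while XBP1 fell. It had 393, 402 and 384 adjusted reads in DMSO and 758, 787 and 585 in plaB, with a log2 fold change of 0.84 (SE 0.09, adjusted p = 1.6e-06 in limma), and 0.86 without DMSO replicate 2. HYOU1, an endoplasmic reticulum chaperone, was lower at -0.83 (adjusted p = 1.8e-09), as were MBTPS1, the protease that cleaves ATF6, at -0.77 (adjusted p = 4.2e-09) and DNAJC10, a disulfide reductase, at -0.62 (adjusted p = 2.1e-07). Without DMSO replicate 2 the numbers higher and lower were 8 and 6 for the eIF2 list, 2 and 5 for the transcription factors, 2 and 12 for amino acid and one-carbon synthesis, and 2 and 6 for the transporters. They were 7 and 9 for tRNA charging, 6 and 10 for the effectors, and 10 and 13 for the IRE1, XBP1 and ATF6 branches. In that fit 23.5% of all genes tested were higher and 25.0% lower.

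**Figure D3:**
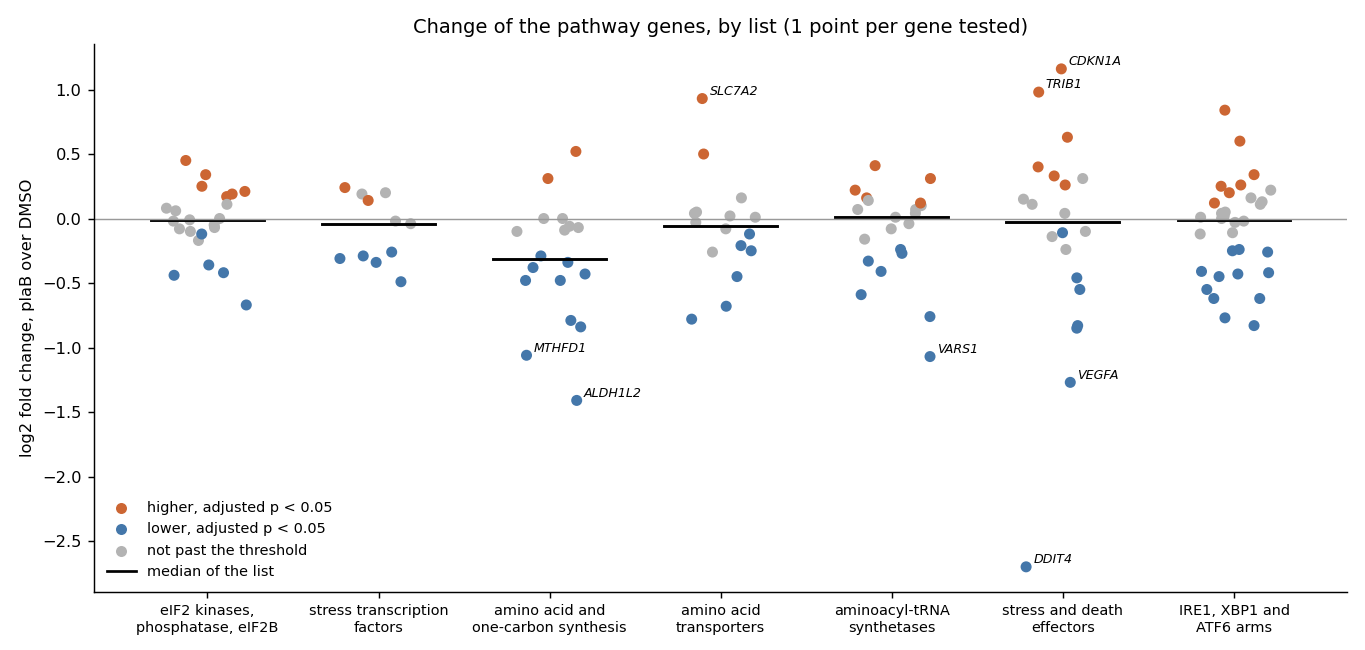
Log2 fold change, plaB over DMSO (vertical axis), of each gene tested in the 7 pathway lists, with 1 point per gene, colour showing the call at an adjusted p under 0.05 and the black line the median. The medians lie between -0.05 and 0.01 except for amino acid and one-carbon synthesis at -0.32, and DDIT4 is the lowest point at -2.70.

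Because DMSO replicate 2 stood apart in many of these genes, its difference from the other vehicle samples was set out by list. The median log2 difference was -0.29 for the transporters and -0.22 for the effectors, against 0.07 for the eIF2 list and 0.08 for the IRE1, XBP1 and ATF6 branches. DMSO replicate 2 was the lowest vehicle sample for 15 of 20 effectors (75.0%), against 35.7% of all genes tested. It was the lowest for 4 of 22 genes (18.2%) of the eIF2 list and 7 of 32 (21.9%) of the IRE1, XBP1 and ATF6 branches. Among the 10 genes the difference ran from -1.73 for CHAC1, -0.74 for TRIB3 and -0.72 for ASNS to 0.03 for EIF2AK4 and 0.06 for EIF2AK3. What set this sample apart was not tested.

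The C/EBP-ATF element TGATGNAA was in the promoter windows of 343 of 12198 tested genes with a window (2.81%), and of 22 of 115 genes of the lists (19.1%). The share was 46.2% for transporters (6 of 13), 41.2% for tRNA charging (7 of 17) and 40.0% for transcription factors (4 of 10). None of the 16 tested effectors with a window had a match. Of the 22 list genes with a match, DMSO replicate 2 was the lowest vehicle sample for 20 (90.9%), all but GOT1 and NARS1, against 34 of 93 list genes without a match (36.6%). Over all genes tested these shares were 42.9% with a match and 34.9% without. Only 1 of 19 genes of the eIF2 list and 1 of 29 of the IRE1, XBP1 and ATF6 branches had a match. In those lists DMSO replicate 2 was lowest for 18.2% and 21.9% of the genes tested. It was lowest for 75.0% of the 20 effectors tested, of which the 16 with a window had no match and the rest were not searched. The element and the list were therefore not separated. Over the 22 genes its difference from the other vehicle samples ran from -0.82 for SLC1A4 to 0.03 for NARS1, with TARS1 at -0.05. For the comparison of plaB with DMSO, 9 of the 22 were lower and 3 higher, against 31 lower and 20 higher of the 93. Over all genes tested, 25.9% with a match and 26.2% without were lower, and 21.0% and 22.9% were higher. These are descriptions with no test, and the search was chosen after the values had been seen. Sites of named genes are shown for comparison with CHAC1 and ASNS, with the motif in capitals, from chr19:33374060-33374089 (plus strand) for CEBPG, chr14:75427995-75428024 (plus) for JDP2, chr1:212565205-212565234 (plus) for ATF3, chr11:3057407-3057436 (plus) for CARS1 and chr11:62881725-62881748 (minus) for SLC3A2, which ends with its window (GRCh38.p14):
CEBPG: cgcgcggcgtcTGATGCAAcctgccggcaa
JDP2: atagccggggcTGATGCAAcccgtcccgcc
ATF3: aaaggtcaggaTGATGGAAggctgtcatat
CARS1: ttcctagaatcTGATGCAAccgccgccccg
SLC3A2: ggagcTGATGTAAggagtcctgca
All 5 genes were lowest in DMSO replicate 2 among the vehicle samples, and in plaB CEBPG, JDP2 and CARS1 were lower, SLC3A2 was higher and ATF3 did not pass the threshold.

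**Figure D4:**
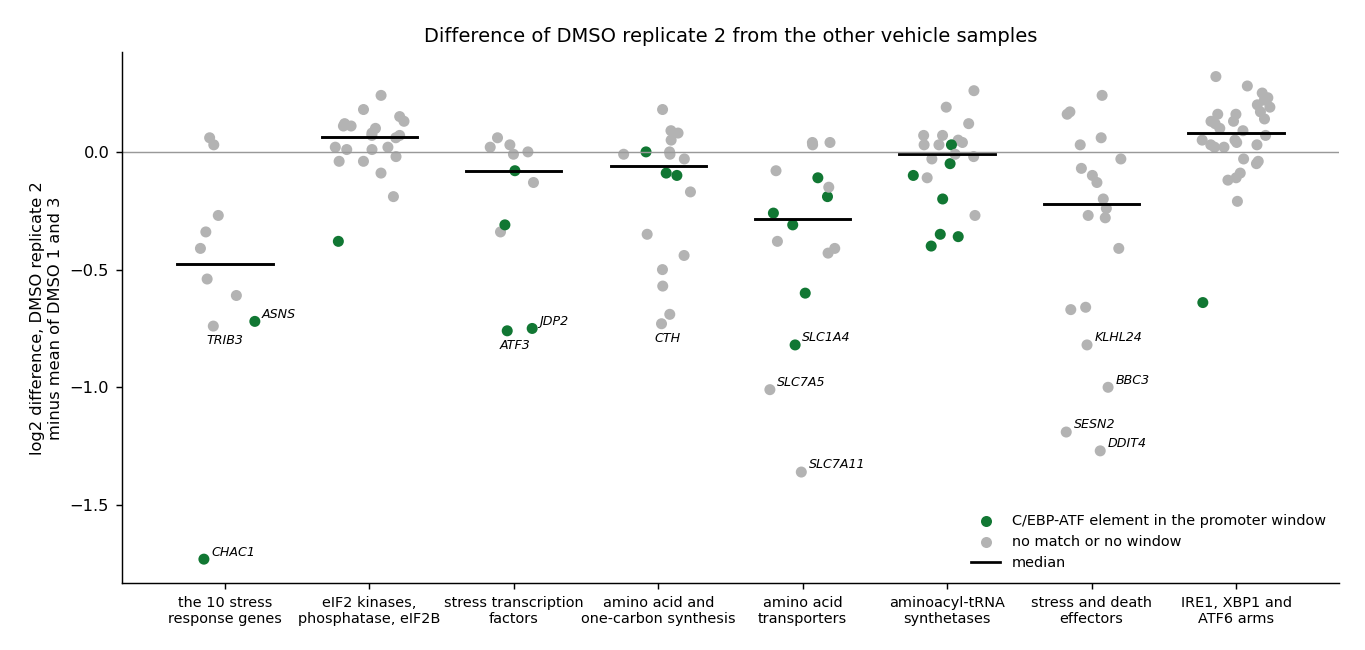
Log2 difference of DMSO replicate 2 from the mean of DMSO replicates 1 and 3 (vertical axis) for the 10 stress response genes and the 7 lists, with 1 point per gene and black lines for medians. Green points have a C/EBP-ATF element in the promoter window. CHAC1 is lowest at -1.73, and the median of the 10 genes is -0.47.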

How the data were processed

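The values per sample are a signal deposited by the authors, adjusted for library size. Their form was that of edgeR's quantile adjustment of counts (common dispersion 0.0027). Undoing it gave whole reads, within 0.02, for 100% of 96432 values of 10 or more. Columns deposited with the authors' own log2 fold change, p-value and q-value were not used. The study's methods name hisat2, hg38 and DESeq2, and the submitters' processing notes name HISAT2, HTSeq 0.12.4, DESeq2 and hg19. Positions overlapped those of GRCh38.p14 for 99.8% of 35926 shared symbols, so GRCh38 was used. Counting settings are not given in the sources used here. No value column was left unassigned (0 columns).

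Limma 3.58.1 in R 4.3.3, with a variance trend, tested log2(value + 1), 2-sided, over genes kept by filterByExpr (minimum 10 in 3 samples, 15 in total). An adjusted p under 0.05 was called. The planned count test gave way to limma because the values are adjusted, and edgeR 4.0.16 and DESeq2 1.42.0 ran on the recovered reads as alternatives. Other alternatives were a pseudocount of 0.1, no filter, TMM and upper-quartile scaling, no variance trend, a replicate block, and each sample left out. The scripts were tested on simulated data. The 10 genes and the lists were chosen with earlier results of these data known. Named were the 10 genes, up to 4 called genes per list with the largest change and a mean of at least 50, the partners EIF2AK1, EIF2AK2, ATF3, CEBPB, HSPA5 and ERN1, and the 5 genes most like ATF4. Promoter windows came from RefSeq, with a window for all 10 genes, and transcript lengths from GENCODE v44. One listed gene is not reported here.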

Additional observations from a re-analysis of the deposited data

How the results depend on the processing

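Most values of the named genes kept their call under the alternatives, which include fits that leave out a sample. Over 42 named genes and 14 alternatives, 551 of 588 values kept direction and side of the threshold, 27 lost the call, 3 gained it and 7 changed sign. The 42 are the 10 genes and the called genes and partners named from the lists. Genes named only as nearest to ATF4, for a promoter motif or after their values were seen are left out. Most of the list genes were named for a large change past the threshold, so these shares do not describe other genes. The sign changes were near 0 and never called. With each sample left out in turn, EIF2AK1 ranged from -0.05 to 0.02, HSPA5 from -0.02 to 0.08 and ATF3 from -0.06, without DMSO replicate 2, to 0.36. EIF2AK1 was at 0.0053 with upper-quartile scaling. Of the 10 genes, PSAT1 lost its call with 5 alternatives, namely DESeq2 (adjusted p = 0.13), no variance trend (0.17), and without DMSO replicate 1 (0.061), DMSO replicate 3 (0.086) or plaB replicate 2 (0.096), CHAC1 lost it with 1, and TRIB3 gained it with 1. The log2 fold change ranged from -2.15 to -1.23 for CHAC1, -1.18 to -0.80 for ASNS, -0.45 to -0.30 for ATF4 and 0.40 to 0.73 for DDIT3. Without the variance trend the counts called lower were 3 of the 10 genes, 3 in the eIF2 list, 2 transporters and 4 effectors, and those called higher were 0 transcription factors, 1 transporter and 3 for tRNA charging. Transporters called lower numbered 6 in the main test, 3 without the filter or with upper-quartile scaling and 1 with DESeq2. With each sample left out in turn, that count was 1 to 6, the eIF2 list had 3 to 6 lower, tRNA charging 3 to 7 higher and the transcription factors 0 to 2 higher. The cause of these moves was not tested. Over all genes the calls numbered 6381 to 7836, against 7695, the share higher was 45.8% to 51.3%, and the median of all genes lay between -0.008 and 0.021, with -0.004 in the main test. The replicate numbers shared by the groups were not used as pairs in the main test. Correlations of same-numbered deviations were -0.018, -0.017 and 0.003, which cannot show whether same-numbered samples were handled together. A fit with replicate number as a block called 7349 genes. Depth limits genes under about 10 reads, such as GDF15 and NUPR1.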

Other observations

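Some listed genes had too few reads for the test, and their values are counts only. GDF15, a secreted stress cytokine induced by ATF4, CHOP and p53, had 2, 1 and 0 recovered reads in DMSO and 8, 9 and 19 in plaB, with every plaB sample above every DMSO sample. NUPR1, a stress-induced chromatin protein, had 9, 6 and 14 reads in DMSO and 13, 7 and 5 in plaB, with overlapping groups. FGF21, a secreted target of ATF4 whose promoter window also holds the C/EBP-ATF element, had 0 reads in all 6 samples, where a count of 0 allows up to 3 reads per sample. SLC7A3 and ERN2 had at most 2 reads in any sample.

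Among the effectors, SESN2, which restrains mTORC1 when leucine is short and was chosen after its values were seen, had 1798, 781 and 1759 adjusted reads in DMSO and 913, 986 and 867 in plaB. Its log2 fold change was -0.55 (adjusted p = 0.032 in limma), and -0.95 without DMSO replicate 2. Its difference of DMSO replicate 2 from the other vehicle samples was -1.19 on the log2 scale, close to the -1.27 of DDIT4, but in plaB DDIT4 lay below DMSO replicate 2 in every sample and SESN2 above it in every sample. The same difference was -1.36 for the transporter gene SLC7A11 and -0.76 for ATF3. Counting errors are the only ones covered by the limits on counts of 0.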
